A study of Mus musculus with 8 samples.

Results

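The genes described here are 10 members of the bone morphogenetic protein (BMP) pathway and its best known target family, the Id genes: Bmp4, Bmpr1a, Bambi, Smad1, Smad5, Smad6, Id1, Id2, Id3 and Id4. Their probe sets were found by gene symbol, and they are 10 of the 18193 genes that the array platform names. All 23 probe sets that carry 1 of these symbols were examined, of 45037 in all, and a gene's value is that of its probe set with the highest average level. RNA was measured in 8 mouse embryonic stem cell (ESC) lines, each on 1 Affymetrix mouse genome array: 3 Zfp281 null lines (7, 3.34 and 3.38), 2 heterozygous lines (5 and 3.1) and 3 wild-type lines (3, 3.2 and 3.3). The null lines carry a targeted allele in both copies of Zfp281, a Krüppel-like zinc finger factor, and the heterozygous lines in 1 copy. In that allele a neomycin resistance cassette flanked by loxP sites took the place of both exons, made first in CJ7 ESCs, and null alleles with and without the cassette exist. Each line was grown out from a blastocyst of heterozygous parents, so a line stands for 1 embryo, and all lines shared feeder fibroblasts, serum and leukemia inhibitory factor (LIF). Null line 7 and wild-type line 3 are given in the study as a pair of 1 litter, and null line 3.38 and wild-type line 3.3 as a pair of another. No rescued line is among the arrays, and the arrays show what differs between lines of 3 genotypes, with line, passage and array error in the same spread.

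BMP ligands such as Bmp4 bind type I receptors, Bmpr1a among them, together with type II receptors, and the type I receptor then phosphorylates Smad1 and Smad5. These join Smad4 and switch on target genes, of which the Id genes are among the most direct, while Smad6 and the pseudoreceptor Bambi dampen the signal. Id proteins have a helix-loop-helix domain but no DNA-binding region, and they hold E proteins and their partners away from DNA. In mouse ESCs, BMP signaling acts with LIF to keep cells undifferentiated, and Id genes are a known part of that effect.

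The Id genes differed from each other in direction. By measured level Id1 was 2.01-fold higher in null than in wild-type ESCs, though it was called present in no wild-type line. It was the only member past the test, at an adjusted p of 0.0467 in limma. Its call was lost in 13 of 19 alternative settings, and with a measure of RNA quality as a covariate its difference was 0.45 (log2) in place of 1.00. Id2 was 2.22-fold lower in null ESCs and lay just outside the threshold, at an adjusted p of 0.0528 in limma. It passed in 5 of 19 alternative settings, such as litter as a random block, at an adjusted p of 0.0426 in limma. With the RNA quality covariate the Id2 difference was −0.61 (log2) in place of −1.15. With the mean of its 3 probe sets it was −0.42. Id4 was lower in every null line than in every wild-type line on all 3 of its probe sets, Smad1 on 2 of its 3, and Id3 differed by less than the spread between lines. Bmp4, Bmpr1a, Bambi, Smad5 and Smad6, the ligand, the receptors and the other Smads, did not pass the test. The plot of the members by line shows these values.

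**Figure D1:**
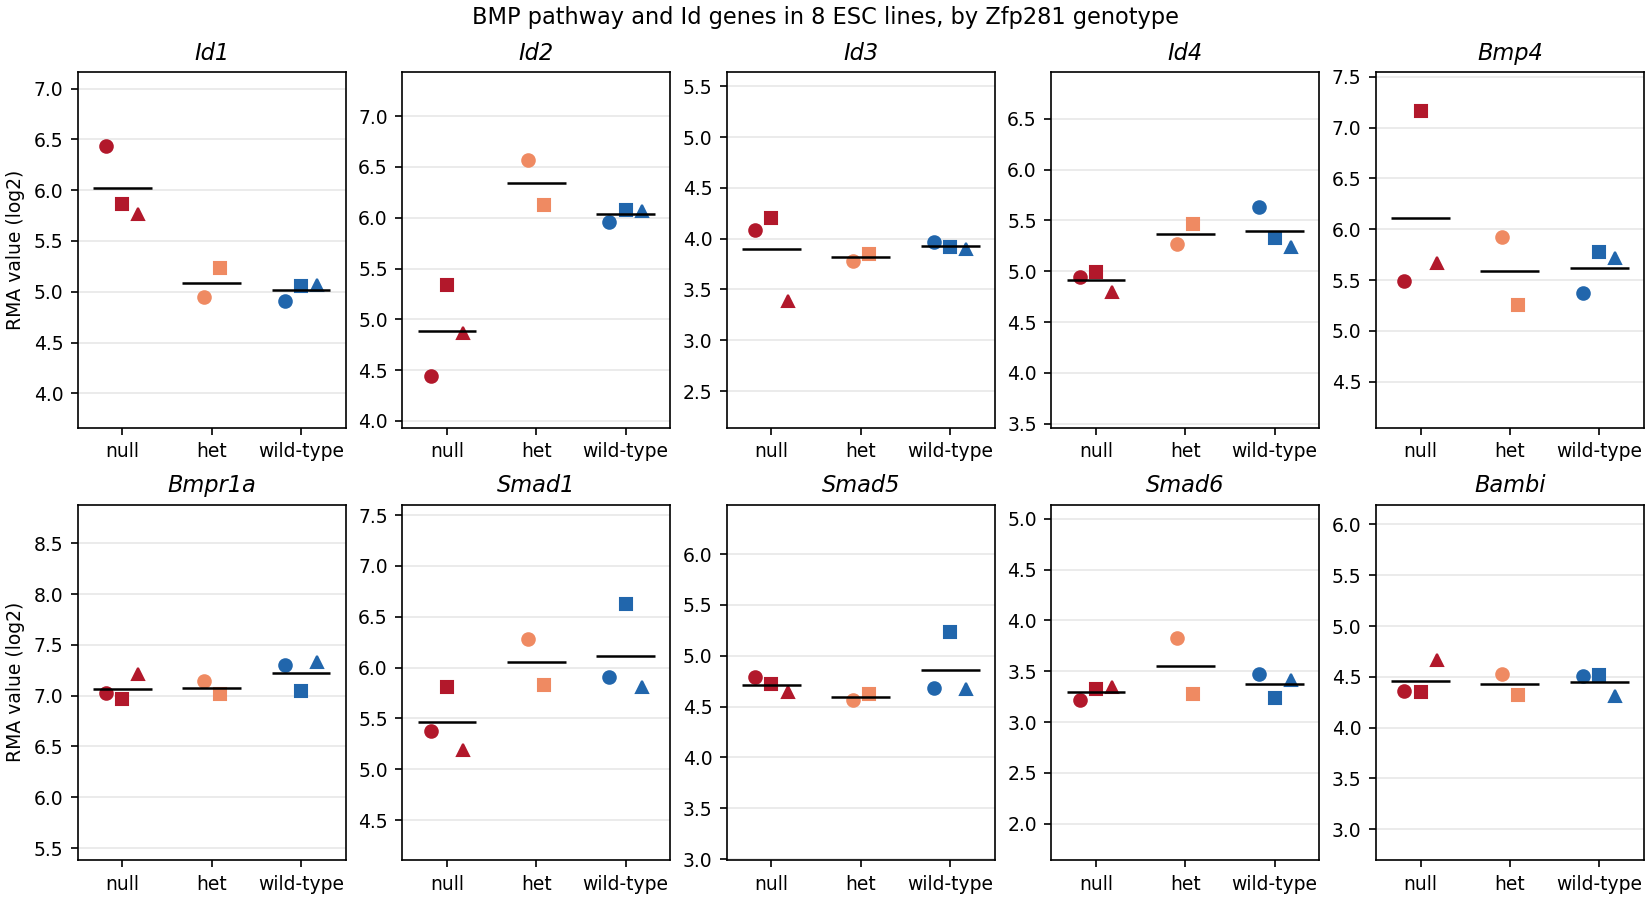
RMA log2 value (vertical axis) of each member in the null, heterozygous (het) and wild-type ESC lines, with a bar at the mean of each genotype. Circles are null line 7, heterozygous line 5 and wild-type line 3, squares are lines 3.34, 3.1 and 3.2, and triangles are null line 3.38 and wild-type line 3.3. All panels span the same number of log2 units but not the same levels. The 3 null lines lie above the others for Id1, at 5.77 to 6.43, and below them for Id2, at 4.44 to 5.34.

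Of the 10 members, 1 was called in null against wild-type ESCs at an adjusted p under 0.05, and it was higher, where 1.13% of all genes were called and 0.693% were called higher. No member was called lower, where 0.44% of all genes were. Both Id1 and Id2 lay past a 2-fold difference, Id1 higher (1.37% of all genes) and Id2 lower (1.1%), 2.47% in either direction. The null and wild-type lines did not overlap for 4 members, Id1 above and Id2, Id4 and Smad1 below, where 22.4% of all genes did not overlap, 11.1% above and 11.2% below. The same 4 members had an unadjusted p under 0.05 in limma, as did 16.4% of all genes. The median null minus wild-type difference was −0.11 (log2) over the members and −0.01 over all genes.

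The sequences just before the start sites of Id2, Id4 and Smad1 are shown because these 3 members were lower in every null line, and that of Id3 because it is an Id gene with no such difference. They are the 250 bases before the RefSeq start site, 5′ to 3′ on the gene's strand, from assembly GRCm38.p6. Such a sequence was at hand for 8 of the 10 members, and not for Id1 and Bambi. Capitals mark matches to 3 motifs, searched on both strands. The palindrome GGCGCC is an element known to bind Smad1 and Smad5. The short Smad site CAGAC reads as GTCTG on the other strand. The motif GGGGAGGG, which reads as CCCTCCCC on the other strand, is of the kind bound by Zfp281. The Id2 sequence is chr12:25096093-25096342 on the minus strand, Id4 is chr13:48260866-48261115 on the plus strand, Smad1 is chr8:79399429-79399678 on the minus strand, and Id3 is chr4:136143572-136143821 on the plus strand.
Id2: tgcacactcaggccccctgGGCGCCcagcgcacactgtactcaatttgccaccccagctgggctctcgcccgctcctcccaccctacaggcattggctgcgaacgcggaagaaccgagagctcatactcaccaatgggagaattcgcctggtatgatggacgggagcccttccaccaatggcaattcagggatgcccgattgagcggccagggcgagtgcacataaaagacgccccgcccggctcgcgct
Id4: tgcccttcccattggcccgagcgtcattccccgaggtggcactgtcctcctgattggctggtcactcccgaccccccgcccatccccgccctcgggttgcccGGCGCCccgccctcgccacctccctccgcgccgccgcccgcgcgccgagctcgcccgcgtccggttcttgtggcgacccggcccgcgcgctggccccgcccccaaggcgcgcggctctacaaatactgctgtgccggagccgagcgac
Smad1: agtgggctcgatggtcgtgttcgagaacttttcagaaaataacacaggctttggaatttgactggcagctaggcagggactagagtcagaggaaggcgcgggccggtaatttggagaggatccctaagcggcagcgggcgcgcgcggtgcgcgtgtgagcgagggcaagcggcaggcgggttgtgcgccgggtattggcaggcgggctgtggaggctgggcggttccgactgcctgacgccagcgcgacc
Id3: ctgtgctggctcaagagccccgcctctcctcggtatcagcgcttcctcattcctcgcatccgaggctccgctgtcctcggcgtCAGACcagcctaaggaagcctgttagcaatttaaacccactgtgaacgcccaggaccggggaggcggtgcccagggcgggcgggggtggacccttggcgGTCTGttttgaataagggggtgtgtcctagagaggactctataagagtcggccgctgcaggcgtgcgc
Id2 and Id4 each had 1 match to GGCGCC, beginning at base −231 of Id2 and base −148 of Id4, counted back from the start site. Id3 had 2 matches to CAGAC, at bases −167 and −68, and none to GGCGCC, and Smad1 had no match to any of the 3 motifs. None of these 4 sequences held GGGGAGGG. Of the other 4 members with such a sequence, Bmp4 and Smad6 had no match to any motif, while Bmpr1a and Smad5, whose null and wild-type lines overlapped on the probe set that represents the gene, held both GGCGCC and GGGGAGGG. Bmpr1a had GGCGCC at base −198 and 4 matches to GGGGAGGG, and Smad5, which has 3 start sites, had GGCGCC at base −19 of 1 of them and GGGGAGGG before each, 2 of these windows sharing 1 site, and CAGAC at base −21 of another. Over 32851 promoter sequences of the same length, 9.59% held GGCGCC, 42.2% held CAGAC and 9.69% held GGGGAGGG. The 4 sequences are GC-rich, at 62.8% for Id2, 75.6% for Id4, 63.6% for Smad1 and 62.8% for Id3. A match describes the letters and is not a measured binding site.

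Bmp4 encodes the ligand, and of all members it varied most among the null lines. The log2 value of Bmp4 was 5.49, 7.16 and 5.67 in null lines 7, 3.34 and 3.38, against 5.92 and 5.25 in the heterozygous lines 5 and 3.1 and 5.37, 5.78 and 5.72 in the wild-type lines 3, 3.2 and 3.3. Null line 3.34 stood above all other lines, and the other 2 null lines lay within the wild-type range. The null minus wild-type difference was 0.48 (95% interval −0.45 to 1.42, adjusted p = 0.661 in limma), and without null line 3.34 it was −0.04. No fold is given for Bmp4, since neither null line 7 nor any wild-type line was called present. The Affymetrix detection call, which asks whether a probe set stands above its own mismatch background, was present for Bmp4 in null lines 3.34 and 3.38 and heterozygous line 5 and in no wild-type line.

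Bmpr1a, the type I receptor, had the steadiest level of the members that were called present in every line. Its log2 value was 7.03, 6.97 and 7.21 in null lines 7, 3.34 and 3.38, against 7.14 and 7.02 in the heterozygous lines 5 and 3.1 and 7.30, 7.05 and 7.33 in the wild-type lines 3, 3.2 and 3.3. The genotypes overlapped, and the null minus wild-type difference was −0.16 (95% interval −0.44 to 0.12, adjusted p = 0.615 in limma). That interval holds no difference of 2-fold in either direction. Bmpr1a has 6 probe sets, of which 5 were called present on some array and 3 on all. The other 2 that were present on every array gave larger differences, −0.40 (SE 0.17) on 1425493_at and −0.73 (SE 0.24) on 1425494_s_at, with null and wild-type lines that overlapped on both and an adjusted p of 0.356 and 0.211 over all probe sets in limma. Only 1451729_at, called present on 3 arrays, separated null from wild-type lines, at −0.28 (SE 0.10).

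Bambi, a transmembrane protein that resembles a type I receptor but lacks the kinase, was called present in no line. Its log2 value ran from 4.35 to 4.67 in null lines, from 4.32 to 4.53 in heterozygous lines and from 4.31 to 4.52 in wild-type lines, so that no fold can be given for it.

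Smad1, which carries the signal to the nucleus, was lower in null ESCs. Its log2 value was 5.38, 5.81 and 5.19 in null lines 7, 3.34 and 3.38, against 6.28 and 5.83 in the heterozygous lines 5 and 3.1 and 5.91, 6.63 and 5.81 in the wild-type lines 3, 3.2 and 3.3. The highest null line lay just under the lowest wild-type line, the 2 values being equal at this rounding, and heterozygous line 3.1 lay just above both. The difference was −0.66 (SE 0.25, 95% interval −1.23 to −0.09), and its adjusted p of 0.233 in limma did not pass. Without wild-type line 3.2, the highest of all, it was −0.40.

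On the second Smad1 probe set that was present on every array, 1459843_s_at, the genotypes lay further apart. The value there was 4.38, 5.22 and 5.24 in null lines 7, 3.34 and 3.38, against 6.11 and 6.06 in the heterozygous lines 5 and 3.1 and 5.93, 6.77 and 5.98 in the wild-type lines 3, 3.2 and 3.3. All 3 null lines were below all 5 others, by −1.28 (SE 0.28) against wild-type, with an adjusted p of 0.0863 over all probe sets in limma. The third, 1416081_at, was called present on no array and differed by −0.15.

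Smad5, the partner of Smad1, and Smad6, which blocks both, showed no difference beyond the spread. The Smad5 probe set with the highest mean was called present on no array, and its log2 value ran from 4.64 to 4.79 in null lines, was 4.56 and 4.62 in heterozygous lines and ran from 4.67 to 5.23 in wild-type lines. Its other 2 probe sets, present on 3 and 4 arrays, differed between null and wild-type by 0.10 and −0.16. Smad6 lay between 3.22 and 3.35 in null lines, at 3.83 and 3.28 in heterozygous lines and between 3.24 and 3.47 in wild-type lines, a null minus wild-type difference of −0.07 (95% interval −0.42 to 0.27, adjusted p = 0.892 in limma). Heterozygous line 5 had the highest Smad6 value of the 8.

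Id1 was the member that rose. Its log2 value was 6.43, 5.86 and 5.77 in null lines 7, 3.34 and 3.38, against 4.95 and 5.23 in the heterozygous lines 5 and 3.1 and 4.91, 5.06 and 5.07 in the wild-type lines 3, 3.2 and 3.3. All 3 null lines stood above all 5 other lines, while heterozygous and wild-type lines overlapped. Id1 averaged 6.02 ± 0.36 in null (SD, n = 3) and 5.01 ± 0.09 in wild-type ESCs (SD, n = 3), a difference of 1.00 (SE 0.18, 95% interval 0.59 to 1.42). Within the 2 litters it was 1.52 (null line 7 minus wild-type line 3) and 0.69 (null line 3.38 minus wild-type line 3.3). Id1 was called present in all 3 null lines and in no heterozygous or wild-type line, so its level there may lie below the measured one. From the measured levels the fold was 2.01 against wild-type and 1.9 against heterozygous ESCs. Neither fold is a lower limit on the difference, since the 95% interval against wild-type reaches down to 0.59 (log2).

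Only 1 probe set measures Id1, and over all probe sets its adjusted p was 0.0547 in limma. The call for Id1 over all genes was a narrow one. Left out one at a time, all lines but null line 3.38 took it past 0.05 in limma, to an adjusted p of 0.132 without null line 7, 0.0604 without null line 3.34, 0.0559 without either heterozygous line, and 0.155, 0.119 and 0.0711 with wild-type lines 3, 3.2 and 3.3 left out in turn. The difference itself stayed between 0.80, without null line 7, and 1.13, without null line 3.38. The adjusted p in limma was 0.0508 with quantile normalization, 0.0559 with only the null and wild-type lines fitted, 0.0945 in the 4 lines of the 2 litters with litter as a block, and 1 with the difference between 3′ and 5′ control probe sets as a covariate, at 0.45. On the linear signals of the Affymetrix software, Id1 was at 88.5, 53.7 and 28.2 in null lines 7, 3.34 and 3.38, against 20.5 and 34.6 in the heterozygous lines 5 and 3.1 and 27.8, 7.8 and 24.1 in the wild-type lines 3, 3.2 and 3.3. There null line 3.38 lay below heterozygous line 3.1 and barely above wild-type line 3, and the scaled signals gave a difference of 1.01 (SE 0.34, adjusted p = 0.228 in limma).

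Id2 was lower in every null line. Its transcripts had log2 values of 4.44, 5.34 and 4.87 in null lines 7, 3.34 and 3.38, against 6.57 and 6.12 in the heterozygous lines 5 and 3.1 and 5.96, 6.08 and 6.07 in the wild-type lines 3, 3.2 and 3.3. All 3 null lines lay below all 5 others, and both heterozygous lines lay above all wild-type lines. Id2 averaged 4.88 ± 0.45 in null (SD, n = 3) and 6.03 ± 0.07 in wild-type ESCs (SD, n = 3), a difference of −1.15 (SE 0.22, 95% interval −1.66 to −0.65). It was called present in every line, unlike Id1. Within the 2 litters the difference was −1.52 (null line 7 minus wild-type line 3) and −1.20 (null line 3.38 minus wild-type line 3.3).

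Whether Id2 passed the test depended on the choices made. With litter as a random block the difference was −1.17 (adjusted p = 0.0426 in limma), and in the 4 lines of the 2 litters, with litter as a fixed block, −1.36 (adjusted p = 0.0457 in limma). The adjusted p was 0.0367 in limma without null line 3.34, at a difference of −1.38, and between 0.0592 and 0.173 without each of the other lines. It was 0.0375 when only genes called present on at least 2 arrays were tested. The linear signals separated the genotypes, with 35.8, 60.3 and 48.9 in null lines 7, 3.34 and 3.38, against 155 and 157.4 in the heterozygous lines 5 and 3.1 and 101.4, 103.6 and 108.5 in the wild-type lines 3, 3.2 and 3.3. Of the other 2 Id2 probe sets, neither was called present on any array, and they differed by −0.14 and 0.02. With the mean of all 3 probe sets in place of 1435176_a_at the Id2 difference was −0.42 (adjusted p = 0.184 in limma).

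Id3 was near the limit of detection, called present on 5 of 8 arrays. The lines had Id3 log2 values of 4.09, 4.20 and 3.39 in null lines 7, 3.34 and 3.38, against 3.78 and 3.85 in the heterozygous lines 5 and 3.1 and 3.97, 3.92 and 3.90 in the wild-type lines 3, 3.2 and 3.3. The null lines lay on both sides of the wild-type lines, 2 above and line 3.38 below, and the wild-type lines were nearly equal. The difference was −0.03 (95% interval −0.49 to 0.42, adjusted p = 0.968 in limma), and without null line 3.38 it was 0.22.

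Id4 was lower in null ESCs on each of 3 probe sets. On the one with the highest mean, 1423260_at, the log2 value was 4.94, 4.99 and 4.80 in null lines 7, 3.34 and 3.38, against 5.27 and 5.47 in the heterozygous lines 5 and 3.1 and 5.63, 5.33 and 5.24 in the wild-type lines 3, 3.2 and 3.3. The null lines lay below all others, at a difference from wild-type of −0.49 (SE 0.13, 95% interval −0.79 to −0.19, adjusted p = 0.107 in limma). No fold is given for it, since that probe set was called present in wild-type line 3 alone.

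The other 2 Id4 probe sets were called present on more arrays and lay further apart. On 1450928_at the log2 value was 3.18, 3.48 and 3.45 in null lines 7, 3.34 and 3.38, against 4.23 and 4.14 in the heterozygous lines 5 and 3.1 and 4.29, 4.26 and 3.91 in the wild-type lines 3, 3.2 and 3.3. It was called present in null line 3.34 and in all heterozygous and wild-type lines, and differed between null and wild-type by −0.78 (SE 0.13, adjusted p = 0.0532 over all probe sets in limma). On 1423259_at the log2 value was 3.64, 3.85 and 4.01 in null lines 7, 3.34 and 3.38, against 4.53 and 4.27 in the heterozygous lines 5 and 3.1 and 5.05, 4.65 and 4.28 in the wild-type lines 3, 3.2 and 3.3. It was called present in no null line and in all 5 others, and was lower in null ESCs, at least 1.78-fold against wild-type (measured difference −0.83, SE 0.20, adjusted p = 0.0973 over all probe sets in limma). These 3 probe sets were made from 1 transcript sequence, so they are not independent measurements of Id4. With each gene represented by the probe set called present on most arrays, an alternative chosen after seeing the data, Id4 passed the test at −0.78 (adjusted p = 0.0461 in limma).

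Over all 23 probe sets of the members, the null and wild-type lines did not overlap for 8 (34.8%), 1 higher and 7 lower in null lines, where 19.6% of all probe sets did not overlap. Those 8 come from 5 genes. No member probe set passed an adjusted p of 0.05 in limma over all probe sets, where 0.52% of all did, and 10 had an unadjusted p under 0.05, as did 13.3% of all probe sets. The 6 probe sets that were called present on no array all had overlapping lines. The plot of the probe sets shows how far those of 1 gene differed from each other.

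**Figure D2:**
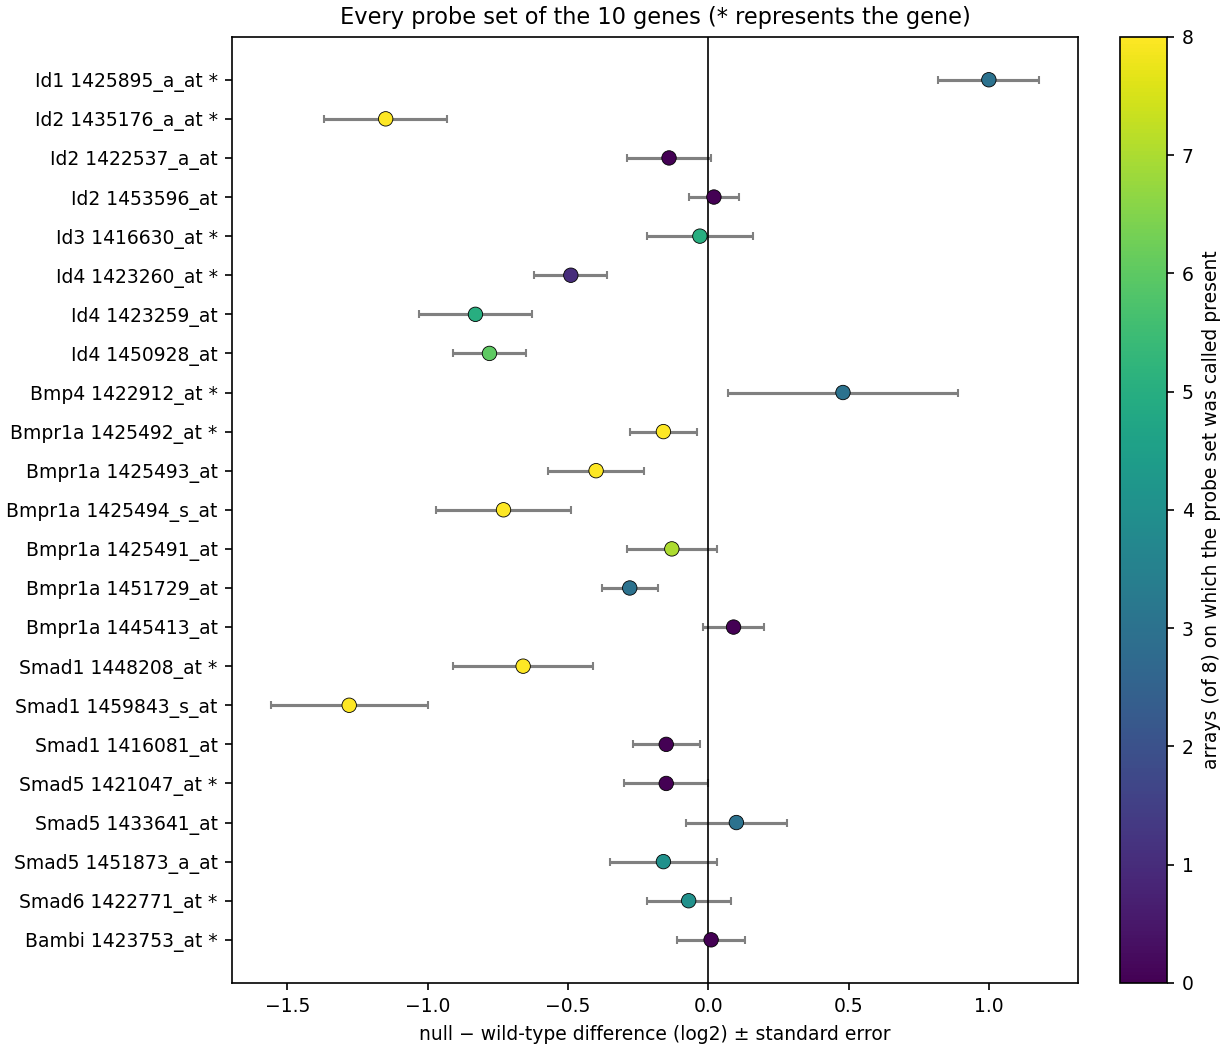
Null minus wild-type difference (log2, horizontal axis) of each of the 23 probe sets of the members, with its standard error from limma, and colored by the number of arrays, of 8, on which the probe set was called present. A star marks the probe set that represents the gene. The 3 Id4 probe sets all lie left of 0, from −0.83 to −0.49, while the probe sets of Id2, Smad1 and Bmpr1a that were called present on no array lie between −0.15 and 0.09.

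The heterozygous lines carry 1 intact copy of Zfp281, and the members were compared in them with both other genotypes. Against wild-type ESCs no member was called, and neither was any other gene (0%), although 701 genes had an unadjusted p under 0.05 in limma, which is 3.85%. No member was past 2-fold, where 0.335% of all genes were. The lines did not overlap for 3 members, Id2 above and Id3 and Smad5 below, the last on a probe set called present on no array, where 17.3% of all genes did not overlap, 8.44% above and 8.83% below. For Id2 the difference was 0.31 (95% interval −0.26 to 0.87). Id1 was called present in neither genotype, so no fold can be given for it.

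In null against heterozygous ESCs no member was called either, as for all genes (0%). Before adjustment 2512 genes, or 13.8%, had a p under 0.05 in limma. Id2 differed by −1.46 (SE 0.25, 95% interval −2.03 to −0.89, adjusted p = 0.0637 in limma), number 83 of all genes by p and was the 1 member with a measured difference past 2-fold, where 2.42% of all genes were, 1.76% higher and 0.66% lower. Its adjusted p was 0.0414 in limma, at the same difference, when wild-type line 3.2 was left out. Id1 was 1.9-fold higher by measured level (difference 0.93, SE 0.20, adjusted p = 0.0917 in limma) and Id4 lower, at −0.46 (SE 0.15, adjusted p = 0.203 in limma). The lines did not overlap for 5 members, Id1 and Smad5 above (Smad5 again on a probe set never called present) and Id2, Id4 and Smad1 below, where 27.9% of all genes did not overlap, 13.3% above and 14.5% below. The 2 comparisons with null lines share those lines, so they do not count as separate evidence.

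**Figure D3:**
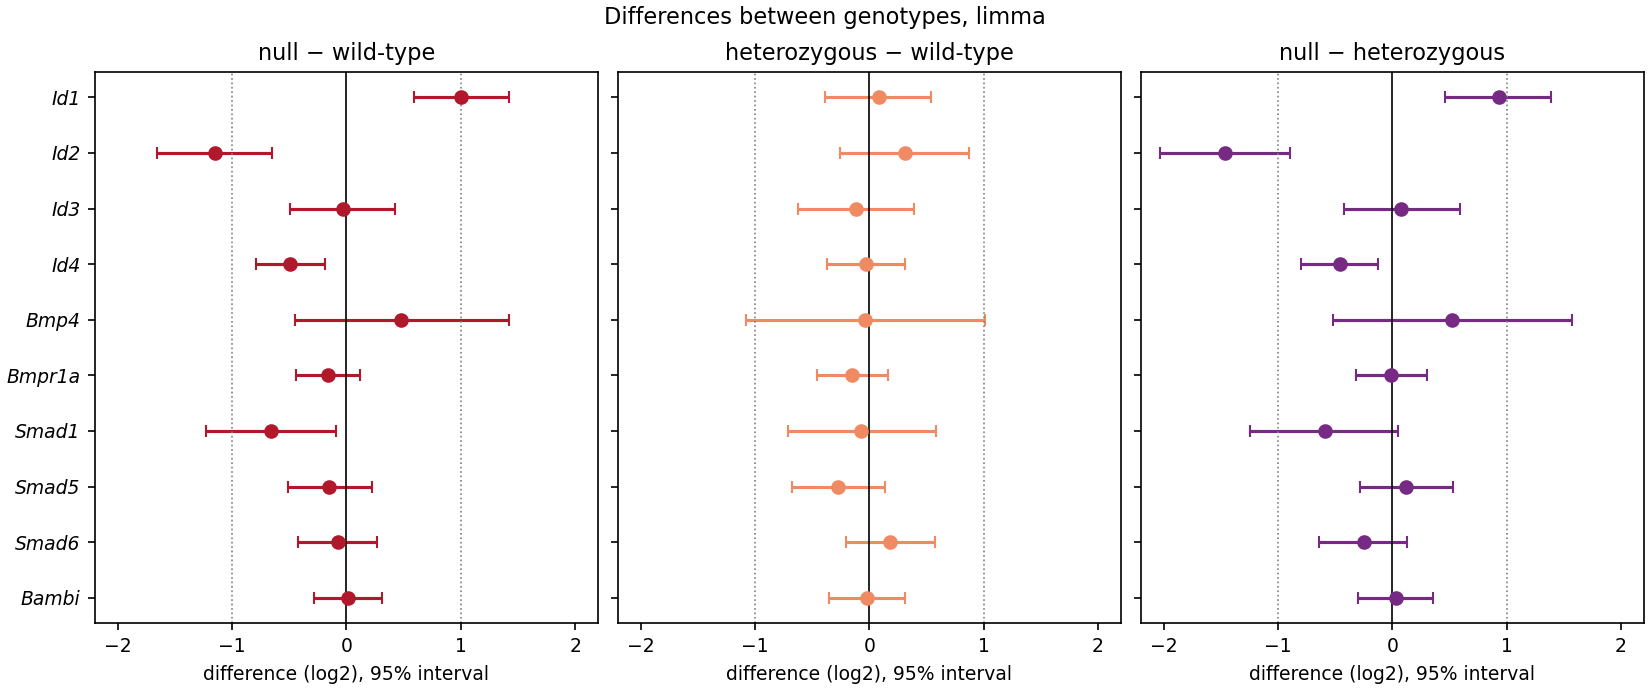
Difference between genotypes (log2, horizontal axis) of each member in null minus wild-type, heterozygous minus wild-type and null minus heterozygous ESCs, with 95% intervals from limma. Dotted lines mark a 2-fold difference. Id1 at 1.00 and Id2 at −1.15 stand out in the first panel, and all intervals in the second panel include 0. The Bambi and Smad5 probe sets shown were called present on no array, and that of Id1 on none of the heterozygous and wild-type arrays.

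On the probe sets that represent the genes, the 4 members with separate null lines did not rank those lines alike. Null line 7 had the highest Id1 value and the lowest Id2 value of all 8 lines, and null line 3.34 had the highest Id2, Id4 and Smad1 values of the 3 null lines. Null line 3.38 had the lowest Id4 and Smad1 values and also the lowest Id1 value of the null lines. The order for Id4 and Smad1 depended on the probe set. Null line 7 was the lowest null line for Id4 on 1450928_at, at 3.18, and on 1423259_at, at 3.64. The same held for Smad1 on 1459843_s_at, at 4.38. Among wild-type lines, line 3.2 had the highest Smad1 and line 3 the highest Id4, with Id1 and Id2 close to equal in all 3. The lines fall into separate groups by genotype, so no correlation between members over all lines is given.

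**Figure D4:**
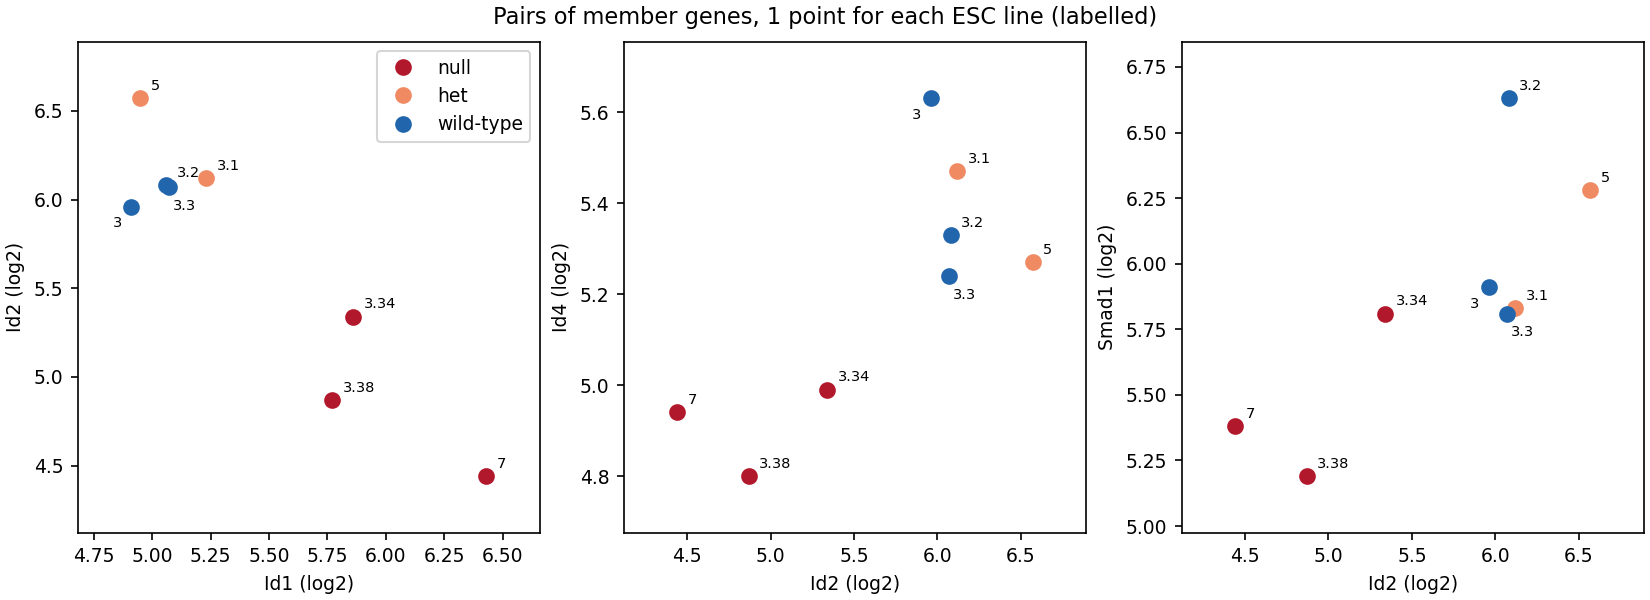
Log2 values of Id2 against Id1, Id4 against Id2 and Smad1 against Id2, with 1 point for each null, heterozygous (het) or wild-type line, labelled with the name of the line. In each panel the 3 null lines lie apart from the other 5, and line 7 lies at the end of the null range in the first panel, with Id1 at 6.43 and Id2 at 4.44.

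The rest of the pathway was read from a list of 70 further genes, of which 65 were measured. None passed an adjusted p of 0.05 in null against wild-type ESCs in limma, where 1.13% of all genes did. Of the 65, 11 had an unadjusted p under 0.05 in limma, as did 16.4% of all genes. The null and wild-type lines did not overlap for 13 (20%), 2 higher and 11 lower in null lines. That total is close to the 22.4% of all genes. The 2 directions were less even than over all genes, where 11.1% were higher and 11.2% lower, and this was not tested. The median difference was −0.06, against −0.01 over all genes. By the detection calls, 24 of the 65 were present in every line of at least 1 genotype and 24 in no line at all.

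Like Bmp4, none of the 10 other ligands measured was present in every line of any genotype, and 8 were present in none. Among the receptors, the type II receptors Acvr2b and Acvr2a differed by −0.80 (SE 0.21, adjusted p = 0.104 in limma) and −0.69 (SE 0.22, adjusted p = 0.164 in limma), with every null line below every wild-type line for both. Bmpr2, the main type II receptor for BMPs, differed by −0.34 with overlapping lines, and 6 of the 10 receptors had the higher mean in null ESCs (Bmpr2 was named after its values were seen). Rgmb, a co-receptor for BMPs, differed by −0.37 and Smad4, the shared partner of Smad1 and Smad5, by −0.53 (SE 0.15, adjusted p = 0.133 in limma), again without overlap. Smad7, an inhibitory Smad, differed by −0.16 with overlapping lines.

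Crim1, a membrane protein that binds BMP ligands, had the lowest difference of the list. Log2 values of Crim1 were 3.35, 3.53 and 3.46 in null lines 7, 3.34 and 3.38, against 3.51 and 3.43 in the heterozygous lines 5 and 3.1 and 4.57, 4.03 and 5.16 in the wild-type lines 3, 3.2 and 3.3. It was called present in all 3 wild-type lines, 1 heterozygous line and no null line, and was at least 2.21-fold lower in null ESCs (adjusted p = 0.0666 in limma). Both heterozygous lines lay with the null lines, at −1.11 (SE 0.27, adjusted p = 0.997 in limma) against wild-type. The secreted antagonists Fst and Fstl1 differed between null and wild-type by −0.75 (SE 0.33) and −0.47 (SE 0.15), and only the lines of Fstl1 did not overlap.

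Among regulators inside the cell, Lemd3, an inner nuclear membrane protein that binds receptor Smads, differed by −1.05 (SE 0.34, adjusted p = 0.168 in limma), and its null lines lay below all wild-type and heterozygous lines. The corepressor Ski differed by −0.64 (SE 0.27) and Fkbp1a, which binds type I receptors, by −0.48 (SE 0.16). Of the other BMP-responsive genes, Dusp9, a phosphatase of the MAP kinases that BMP raises in mouse ESCs, was 1 of 10 measured that was present in every line of a genotype. It was at 6.70, 5.95 and 6.73 in null lines 7, 3.34 and 3.38, against 6.02 and 4.84 in the heterozygous lines 5 and 3.1 and 6.27, 4.58 and 6.62 in the wild-type lines 3, 3.2 and 3.3, with much overlap and a null minus wild-type difference of 0.64 (95% interval −0.58 to 1.85).

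The E proteins are the partners that Id proteins bind. Tcf12 differed between null and wild-type ESCs by −0.92 (SE 0.30, adjusted p = 0.164 in limma), with every null line below every wild-type line, and Tcf4 by −0.39 (SE 0.26) with overlap. Without null line 3.38, both Tcf12, at −1.27 (adjusted p = 0.0479 in limma), and Tcf3, at 0.87 (adjusted p = 0.0425 in limma), passed the test, where 1% of all genes did. Neither passed with any other line left out. With all lines Tcf3 differed by 0.49 (SE 0.29, adjusted p = 0.479 in limma). It was called present in 2 null lines, 1 wild-type line and no heterozygous line. Tcf3, the gene of E2A proteins, was at 6.00, 6.34 and 5.03 in null lines 7, 3.34 and 3.38, against 5.11 and 5.16 in the heterozygous lines 5 and 3.1 and 5.34, 5.27 and 5.28 in the wild-type lines 3, 3.2 and 3.3, and was singled out here after its values were seen.

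**Figure D5:**
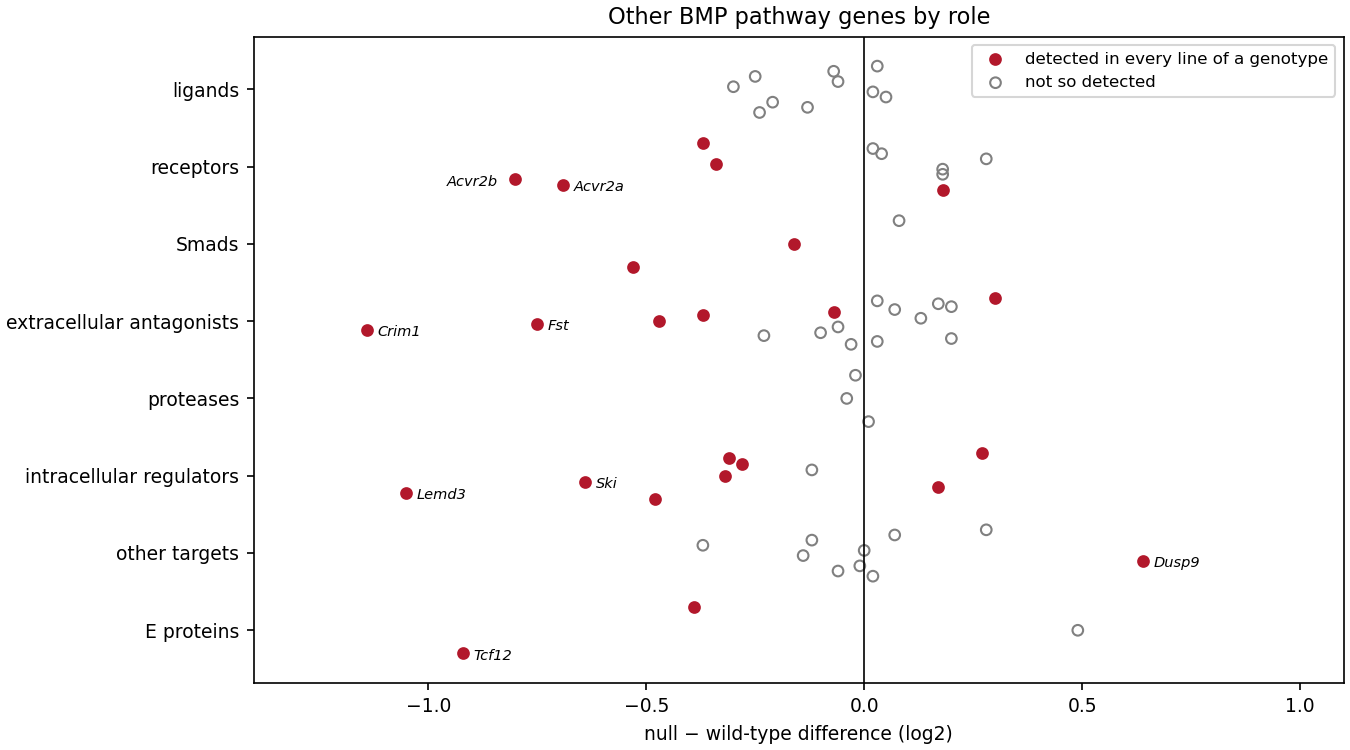
Null minus wild-type difference (log2, horizontal axis) of each of the 65 other pathway genes, grouped by role on the vertical axis. Filled points were called present in every line of at least 1 genotype and open points were not, and genes named in the text past 0.6 either way carry their symbol. The detected genes with the lowest values are Crim1 at −1.14 and Lemd3 at −1.05.

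The 5 genes whose levels over the 8 lines were most like those of Id1 were Prmt7, Ndufa7, Pmm1, Acp6 and Rcn3, among 7581 genes present on at least 4 arrays. Their Pearson correlation with Id1 lay between 0.981 (Rcn3) and 0.993 (Prmt7), a description over 8 points that share their genotypes and arrays, and 5 of them are lines in which Id1 was not called present. For each of the 5 all null lines lay above all wild-type lines, with differences from 0.31 for Rcn3 to 2.41 for Acp6. That separation follows from their choice by likeness to Id1 and is no further result. Of all genes, 11.1% had every null line above every wild-type line.

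The cells and the RNA also differed between genotypes. Zfp281 was lower in every null line than in every wild-type line on both of its probe sets, at a difference of −2.54 on 1426377_at and −4.61 on 1452045_at, and each was still called present in 2 null lines. On 1426377_at its log2 value was 3.64, 5.06 and 5.23 in null lines 7, 3.34 and 3.38, against 6.72 to 7.93 in wild-type lines. ESC markers were present in all lines (10 of 10, or 9 in wild-type line 3.2), and their summed linear level was 17600 to 19800 in null, 11000 to 11600 in heterozygous and 8630 to 11300 in wild-type lines. The most abundant, Dppa5a, was the only 1 called (1.23). Without Dppa5a the sum was 7630 to 8360 in null, 5300 to 6680 in heterozygous and 4440 to 5740 in wild-type lines. Of the 10 ESC markers, 9 had a positive null minus wild-type difference and 7 an unadjusted p under 0.05 in limma. Every null line lay above every wild-type line for 5 of them. The largest differences were 1.48 for Klf4 and 1.29 for Pou5f1, and the smallest −0.03, 0.20 and 0.30 for Esrrb, Utf1 and Sox2. The marker genes here were named after their values were seen. Markers of the feeder fibroblasts numbered 17, none was called and 16 had the lower mean in null ESCs, and their summed level was 4330 to 4990 in null, 6410 to 7350 in heterozygous and 5380 to 8060 in wild-type lines. Feeder cells express Id genes and Smads too, their markers were present in every line, and their part in the differences of the members was not tested. Of 14 endoderm markers 11 had the lower mean in null ESCs and 1, the laminin gene Lamb1, was called lower (−1.25), and their summed level was 604 to 909 in null, 673 to 895 in heterozygous and 851 to 2280 in wild-type lines. Of 7 trophectoderm markers none was called, 3 had the higher and 4 the lower mean in null ESCs, and the median difference was −0.15. The lowest was Krt8 at −1.76, with overlapping lines, and the highest Hand1 at 0.15. The sum of the 7 was 451 to 1920 in null, 548 to 1070 in heterozygous and 1390 to 1890 in wild-type lines. None of 5 mesoderm markers was called, and their sum was 101 to 106 in null, 111 to 126 in heterozygous and 102 to 112 in wild-type lines. The part of these cell types in the members' differences was not tested. In such samples fewer cells of a type and less RNA per cell cannot be told apart.

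The difference between 3′ and 5′ control probe sets (mean of Gapdh and beta-actin), which grows as RNA is degraded or incompletely copied, averaged 3.30 ± 0.55 in null (SD, n = 3), 4.64 ± 0.22 in heterozygous (SD, n = 2) and 4.61 ± 0.34 in wild-type lines (SD, n = 3). Of its variance, 79.1% lay between genotypes, and no null line overlapped another genotype, so the RNA measure and the genotype cannot be told apart. With it as a covariate the null minus wild-type difference was 0.45 (SE 0.30, adjusted p = 1 in limma) for Id1 and −0.61 (SE 0.41, adjusted p = 1 in limma) for Id2. For Id4 it was −0.29 (SE 0.27) in place of −0.49, and for Smad1 −0.36 (SE 0.52) in place of −0.66. For Bmp4 it was larger, at 1.29 (SE 0.79) in place of 0.48. The share of probe sets called present ran from 32.9% to 35.3% in null, 28.4% to 32.3% in heterozygous and 30.4% to 33.2% in wild-type lines.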

How the data were processed

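RNA of 8 mouse ESC lines was hybridized to Affymetrix mouse genome arrays, with genotype and line taken from the sample labels. The log2 values that the authors deposited come from RMA of all arrays. The authors also deposited a linear signal for each probe set and array, with a detection p-value and a present, marginal or absent call, of which the signals and the calls were used. For the scaling of the signals, and for the versions of the authors' RMA and limma, the sources used here give nothing. The log2 scale is that of the range, 2.28 to 14.39, and array medians lay between 3.87 and 3.92. Each column of log2 values matched the signals of its own array best.

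Of 45101 probe sets, 64 controls were left out. The platform annotation gives 1 gene for 34945, several for 932 and none listed for 9160, and no gene was named from a probe set with several. All 10 members matched a current gene table by Entrez identifier. A gene took the value of its probe set with the highest mean, and no filter on low values was applied.

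Genotypes were compared with limma 3.58.1 in R 4.3.3 (lmFit, eBayes, 1 mean for each genotype, all 8 arrays), with Benjamini-Hochberg adjustment over 18193 genes, or over 45037 probe sets where so stated. The fit was tested on simulated data. Called means an adjusted p under 0.05, and lines do not overlap where every line of 1 genotype lies on 1 side of every line of the other. An exact permutation test of 3 against 3 lines cannot go below p = 0.1, so none was run. A gene counted as present in a line where any of its probe sets was called present. The number of arrays limits the precision of every value. The members and gene lists were chosen with earlier results of these data known. The rule for named genes took all members, of each other list the genes past the test or past 2-fold in any comparison or else up to 3 detected genes with the largest null minus wild-type differences, the 5 genes most like Id1, and Zfp281. Promoter sequences came from RefSeq (GRCm38.p6). Alternatives were the mean of a gene's probe sets, a filter on detection, quantile normalization, log2 of the signals plus 16, a variance trend with robust settings, a fit of 2 genotypes, the 3′ minus 5′ covariate, each line left out and litter as a block. The study gives 2 litter pairs (null line 7 with wild-type line 3, null line 3.38 with wild-type line 3.3), and deviations from the genotype means correlated at r = 0.0897 and 0.00844 within them over 7586 genes, against −0.142 to 0.0996 for the other pairs of a null and a wild-type line. Summaries and figures used Python 3.11.15, numpy 2.4.6, pandas 2.3.3 and matplotlib 3.10.9.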

Additional observations from a re-analysis of the deposited data

How the results depend on the processing

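Of the 10 members, 1 was called in null against wild-type ESCs, where 1.13% of all genes were. It was 2 with genes present on at least 2 arrays (Id1 and Id2, of 4.12% of the genes then tested), with a variance trend (Id1 and Id2, 1.23%), with litter as a random block (Id1 and Id2, 1.58%) and with the probe set present on most arrays (Id1 and Id4, 1.24%). It was 0 with quantile normalization (1.07%), signal values (0.0495%), only the 2 genotypes compared (0.819%), the 3′ minus 5′ covariate (0%), and without the 2 lines with the fewest present calls (0.0275%), and 0 to 1 with each line left out, where between 0.011% and 1.14% of all genes were called. The 1 called was Id2 without null line 3.34 and in the 4 lines of the 2 litters with litter as a block (0.978%). The settings with litter, with the probe set present on most arrays and without those 2 lines, heterozygous line 3.1 and wild-type line 3.2, were chosen after seeing the data. Id1 lost its call in 13 of 19 alternatives, with adjusted p over all 19 between 0.0351 and 1 in limma and a difference between 0.45 and 1.13. Members past 2-fold in that comparison numbered 0 to 2. In null against heterozygous ESCs the count of called members was 0, or 1 (Id2) with genes present on at least 2 arrays, and 0 to 1 with each line left out. No alternative called a member in heterozygous against wild-type ESCs. Other pathway genes called in null against wild-type ESCs numbered 0, or 1 (Crim1) with a variance trend and in the 4 lines of the 2 litters, and 0 to 2 with each line left out. Member probe sets called numbered 0, or 3 with probe sets present on at least 2 arrays (of Id1, Id2 and Id4), 2 with a variance trend and 2 with litter as a random block (of Id1 and Id4 both times), and 0 to 1 with each line left out.

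Of 541 differences of single members over all alternatives, 478 kept their direction and side of the test, 13 lost the call (all Id1), 8 gained one and 42 changed sign. All 42 were small, at most 0.42 in size. In null against wild-type ESCs, the ranges of those that changed sign with a line left out were −0.04 to 0.79 for Bmp4, −0.19 to 0.22 for Id3, −0.09 to 0.07 for Bambi and −0.24 to 0.04 for Smad5. The others were Smad5 at 0.04, Smad6 at 0.00 with signal values, Smad5 at 0.04 without the 2 lines with the fewest present calls and Smad5 at 0.04 in the 4 lines of the 2 litters with litter as a block. In heterozygous against wild-type ESCs, the ranges of those that changed sign with a line left out were −0.13 to 0.08 for Id4, −0.09 to 0.46 for Smad6, −0.07 to 0.22 for Id1, −0.37 to 0.30 for Bmp4, −0.29 to 0.19 for Smad1 and −0.12 to 0.09 for Bambi. The others were Id4 at 0.06, Smad5 at 0.10 with signal values, Id4 at 0.03 with the probe set present on most arrays and Id1 at −0.04, Bmp4 at 0.38, Smad1 at 0.42, Bambi at 0.12 without the 2 lines with the fewest present calls. In null against heterozygous ESCs, the ranges of those that changed sign with a line left out were −0.07 to 0.34 for Id3, −0.09 to 0.05 for Bmpr1a, −0.01 to 0.86 for Bmp4, −0.07 to 0.14 for Bambi and −0.53 to 0.02 for Smad6. The others were Bmpr1a at 0.03, Smad5 at −0.07 with signal values, Id3 at −0.03 with the 3′ minus 5′ covariate, Smad5 at −0.12 with the probe set present on most arrays and Bambi at −0.07 without the 2 lines with the fewest present calls.

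Each line name belongs to 1 genotype, but names that begin with 3 occur in all 3 genotypes, and the labels do not say what it stands for. The litter pairs come from the study. In null against wild-type ESCs, Id2 was also called with litter as a random block. In the 4 lines of the 2 litters, with litter as a fixed block, Id2 was called and Id1 was not. Litter as a block changed no other call of a member gene. With a heterozygous line left out, the lone one is assumed to vary like the other genotypes. Detection limits the members: the probe set that represents the gene was called present on no array for Bambi and Smad5, on 1 of 8 for Id4, 3 for Id1 and Bmp4, 4 for Smad6 and 5 for Id3.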
